A study of Mus musculus with 6 samples.

Results

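The comparison described here sets A3-1 mouse embryonic stem (ES) cells that received a control small interfering RNA (siRNA) against ES cells that received none. The control siRNA targets green fluorescent protein (siGFP). 2 arrays labelled siGFP were set against 2 arrays labelled untreated, as the difference of the group means of each probe set, called a row from here on. The value table holds 35556 rows, and the comparison was described over the 21797 rows that the probe annotation gives exactly 1 gene symbol, which cover 19946 genes. All 4 arrays come from the same line, grown in serum with the cytokine LIF, and the siGFP cells were collected 48 h after the siRNA was given. The series holds 6 arrays. The other 2 arrays received an siRNA against Lin28a and enter no value below, except 1 alternative estimate of the spread. The siGFP group received 1 siRNA sequence, the labels name no delivery reagent, and no group received a carrier without siRNA. Effects of the siRNA, of a carrier and of handling therefore cannot be told apart in this comparison. No label states that replicate arrays stem from separate cultures, so p-values here reflect array-to-array spread alone, which could be technical.

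An siRNA is a short RNA duplex. One of its strands is loaded into an Argonaute protein and guides the cleavage of a fully matching mRNA, and its seed, bases 2 to 8, can lower other mRNAs in the manner of a microRNA. Green fluorescent protein comes from a jellyfish and is no gene of the mouse, so siGFP is widely used as a control. Delivery brings nucleic acid, and often cationic lipid, into endosomes and lysosomes. In many cell types double-stranded RNA is read by sensors that turn on interferon genes. In mouse ES cells this response is known to be weak, and p53, a transcription factor activated by cell stress, limits self-renewal.

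The siGFP duplex is the only reagent that the labels describe, so both of its strands are shown, 5′ to 3′ as the labels give them, with bases 2 to 8 in capitals.

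siGFP first strand: uGAAUUAGauggcgauguu

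siGFP second strand: gACAUCGCcaucuaauuca

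Each strand has 19 bases, followed by 2 deoxythymidines that are not shown. 18 of the bases pair as A with U or G with C. U at position 19 of the first strand, counted from its 5′ end, stands opposite G, which was not counted as such a pair. Of 1738 mature mouse microRNAs in RefSeq, 0 have the seed of either strand. Seed matches in mouse mRNAs were not analysed here.

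Values are log2 expression from robust multi-array averaging (RMA), written in steps of 0.1, so a difference of 1 is a 2-fold ratio. The median over all rows was 5.2 or 5.3 in each of the 4 arrays and the upper quartile was 7.2 in each. The Pearson correlation across rows, which are not independent, was 0.9921 for the untreated pair, 0.9931 for the siGFP pair and 0.9914 to 0.9941 between arrays of different groups. The untreated arrays were at least 2-fold apart in 248 rows with 1 symbol and the siGFP arrays in 121. Pairs of 1 untreated and 1 siGFP array were that far apart in 71 to 239 rows, so by this count no pair across groups was farther apart than the untreated pair. Markers were placed by their mean over the 4 arrays, against the upper quartile of such means over rows with 1 symbol. All 10 markers of ES cells lay above it, with single values between 8.2 and 12.7. Of 10 fibroblast markers 0 lay there (2.1 to 7.1), and neither did any of 6 neural and 5 mesendoderm markers. The exceptions among other cell types were Lama1, 1 of 8 primitive endoderm markers, and Tfap2c, 1 of 6 trophoblast markers. The summed level of the fibroblast markers was 47.6 and 49.3 in the untreated arrays and 47.7 and 47.4 in the siGFP arrays.

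No row passed the test. Of 23410 rows with at least 1 gene, 0 (0%) had an adjusted p under 0.05 by limma, and the lowest adjusted p was 0.941. At an unadjusted p under 0.05, limma gave 588 rows higher (2.51%) and 438 lower (1.87%) with siGFP. After a shift of all arrays to 1 median these counts were 1039 and 276, which moves the share of higher rows from 57.3% to 79%. Ordinary least squares also passed 0 rows, with 278 higher and 202 lower unadjusted. With 2 arrays on each side, the smallest p of an exact two-sided permutation test is 0.333. The genes below are therefore described by their values. The words higher and lower give the order of group means, and no gene is said to have changed. Errors are limma's moderated standard errors (SE) with n = 2 arrays per group.

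Counts of genes are read against all genes in this comparison. Both siGFP arrays lay above both untreated arrays in 1885 of 19946 genes (9.45%) and below both in 1739 (8.72%); such a gene is said to have separate arrays. Among the 8901 genes with a mean of at least 6 these shares were 9.48% and 7.77%. A gene with several rows is represented by its brightest row. Over single rows the counts were 2027 above and 1901 below, and a shift of all arrays to 1 median made them 3305 and 1175. In an extract from a whole culture, fewer cells of a type and less RNA per cell cannot be told apart.

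The gene with the smallest p was Plk2, a polo-like kinase and a target of p53. Plk2 (probe set 10407126) read 6.8 and 6.7 in the untreated arrays and 7.8 and 7.7 in the siGFP arrays. The siGFP arrays were higher by 1.00 on the log2 scale (SE 0.09), and the gap between groups was larger than the 0.1 between arrays of a group. By limma the unadjusted p was 8.92e-04 and the adjusted p 0.941. Without any 1 of the arrays the difference lay between 0.95 and 1.05.

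Plk2 stood in a list of p53 targets, in which the higher genes were the clear majority. Of 40 listed genes 36 had a row of their own. The difference was above 0 for 29 (80.6%, beside 44.3% of all genes), below 0 for 5 and equal to 0 for 2, with a median of 0.225 beside a median of 0 over all genes. A shorter form of this list was already known to be higher in these arrays, so its count is no independent evidence, and the same holds for the ATF4 and lysosome lists and the Lefty genes. Both siGFP arrays lay above both untreated arrays in 17 members (47.2%, against 9.45% of all genes) and below both in 1, Ei24 (2.78%, against 8.72%). The mean of the list, centred on each gene's own mean, was −0.14 and −0.12 in the untreated arrays and 0.11 and 0.15 in the siGFP arrays. 8 members were higher at an unadjusted p under 0.05 (515 of 19946 genes over all) and 0 passed after adjustment by limma. Cdkn1a, Bax, Gdf15 and Trp53 itself had no row of their own and are not analysed here.

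Within the list the larger differences came from genes of several arms of the p53 response. Phlda3, which restrains Akt signalling, read 6.8 in both untreated arrays and 7.3 and 7.7 with siGFP, a difference of 0.70 (SE 0.17). Perp, a membrane protein of cell adhesion and apoptosis, read 6.0 in both untreated arrays and 6.5 and 6.8 with siGFP, a difference of 0.65 (SE 0.14). Epha2, a receptor of ephrins, read 8.2 and 8.3 in the untreated arrays and 8.9 and 8.8 with siGFP (0.60, SE 0.09). In each of these genes the groups were separate, and the siGFP arrays were up to 0.4 apart. Ccng1, the cyclin G1 gene, read 9.9 and 9.6 without siRNA and 10.4 and 10.2 with siGFP (0.55, SE 0.16). Btg2, an antiproliferative gene, read 6.2 in both untreated arrays and 6.6 and 6.7 with siGFP (0.45, SE 0.08). Eda2r, a receptor of the tumour necrosis factor family, read 7.3 and 7.2 against 7.7 in both siGFP arrays (0.45, SE 0.08).

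The negative regulator of p53 and the genes of DNA repair stood lower in the order. Mdm2, the ubiquitin ligase that degrades p53, read 7.8 and 7.9 in the untreated arrays and 8.2 and 8.0 with siGFP, a difference of 0.25 (SE 0.11). The repair genes Polk, Ercc5, Rrm2b and Ddb2 had differences of 0.40, 0.35, 0.20 and 0.15, all with separate arrays. The other members with separate arrays were Dcxr (0.45), Trp53inp1 (0.40), Ddit4l (0.40), Def6 (0.30) and Slc19a2 (0.25). Of the members with a part in apoptosis, Perp is described above. Bbc3, which encodes PUMA, had 0.20 with arrays that met at 6.0. Pmaip1, which encodes NOXA, had 0.00. Fas, a death receptor, had −0.10 at a level between 2.3 and 2.7. Ppm1d, a phosphatase that switches the response off, had −0.05.

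**Figure D1:**
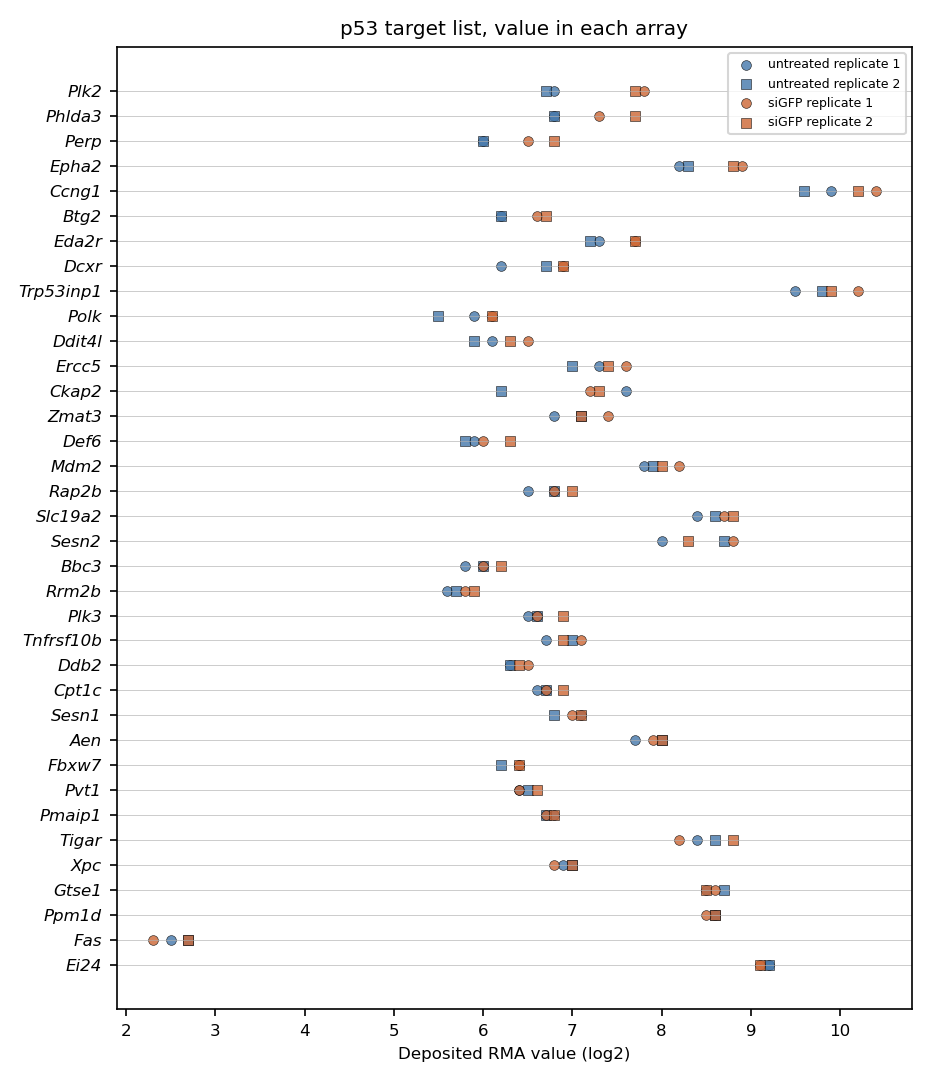
Each line is 1 of the 36 measured p53 targets and each point is 1 array (blue untreated, orange siGFP; circle replicate 1, square replicate 2), on the deposited log2 scale. In 17 lines both orange points lie to the right of both blue points; Plk2, at the top, is 1.00 apart, and Ei24, at the bottom, is the only line with both orange points on the left.

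The promoters of this list were searched for the p53 half-site on either strand. RefSeq promoters, 300 bases each in GRCm38.p6, were given for 27 of the 36 measured members, and 11 of these (40.7%) held a match, beside 9.55% of 27025 genes. The motif was chosen after the list's values were known, and p53 can bind outside such a window. Of the 13 members that had separate, higher arrays and a promoter, 4 held a match. The promoters of Plk2, the largest difference, and of Ccng1, the member with a match and the largest difference, are shown with matches in capitals.

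Plk2, chr13:110394794-110395093, plus strand: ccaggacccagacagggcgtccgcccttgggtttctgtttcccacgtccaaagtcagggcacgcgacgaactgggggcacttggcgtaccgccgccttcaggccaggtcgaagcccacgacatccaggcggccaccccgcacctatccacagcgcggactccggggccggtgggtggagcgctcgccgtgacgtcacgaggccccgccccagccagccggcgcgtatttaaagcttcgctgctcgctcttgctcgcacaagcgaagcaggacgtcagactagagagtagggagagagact

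Ccng1, chr11:40755237-40755536, minus strand: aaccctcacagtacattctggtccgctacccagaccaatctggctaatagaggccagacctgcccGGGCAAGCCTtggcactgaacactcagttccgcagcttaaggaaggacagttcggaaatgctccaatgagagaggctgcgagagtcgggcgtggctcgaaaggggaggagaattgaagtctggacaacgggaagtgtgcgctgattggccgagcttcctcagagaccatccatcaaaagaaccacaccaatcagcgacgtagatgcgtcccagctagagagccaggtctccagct

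The Plk2 window held 0 matches, and the Ccng1 window held 1, whose first base lies at −185 from the start of the gene. A match is a description of these letters only.

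Lefty2 and Lefty1, secreted inhibitors of Nodal, were higher in both siGFP arrays than in both untreated arrays. Nodal is a ligand of the TGF-β family that ES cells make themselves. It acts with the co-receptor Tdgf1 through activin receptors and SMAD2, and the Lefty genes are its targets and feed back on it. Lefty2 (probe set 10352302) read 8.1 and 7.8 in the untreated arrays and 9.6 and 9.0 with siGFP, a difference of 1.35 (SE 0.27, unadjusted p 0.0114 and adjusted p 0.941 by limma). This was the second largest difference of any row with 1 symbol. Lefty1 read 8.1 and 7.6 without siRNA and 8.9 and 8.7 with siGFP, a difference of 0.95 (SE 0.22). The siGFP arrays of Lefty2 were 0.6 apart and the untreated arrays of Lefty1 0.5 apart, so for both genes the gap between groups exceeded that within groups. The genes are close relatives, and how far the probes of one read the other was not tested.

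The rest of the pathway differed less. Of 26 listed genes 24 had a row, with 18 above 0, 6 below 0 and a median of 0.10. Members with separate, higher arrays numbered 6 (25%, against 9.45% of all genes), and those with separate, lower arrays numbered 0 (against 8.72%). Among the ligands, Nodal itself read 8.4 and 8.5 without siRNA and 8.4 and 8.7 with siGFP (0.10, SE 0.14), so its arrays overlapped, and Gdf3 had 0.15 with overlap. The proteases that cut the Nodal precursor, Pcsk6 and Furin, had 0.35 (SE 0.11) and 0.20 (SE 0.09) with separate arrays. Among receptors, Tdgf1 read 11.9 in both untreated arrays and 12 and 12.2 with siGFP, and Acvr2b had 0.20, both with separate arrays. Acvr2a had −0.25 with overlap. The transducers Smad2, Smad3 and Smad4 had −0.05, 0.05 and 0.10, and Foxh1, their DNA-binding partner, had 0.30, all with overlap. Other targets did not follow the Lefty genes. Smad7 and Pmepa1 had 0.05 each, Skil −0.05, Gsc −0.10 and Cer1 −0.35, while Eomes had 0.45 with arrays that met at 5.5. The FOXH1 element (TGTNNATT on either strand) was found in 1 of 13 promoters of the list (7.69%), that of Tdgf1, beside 13.9% of all genes.

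**Figure D2:**
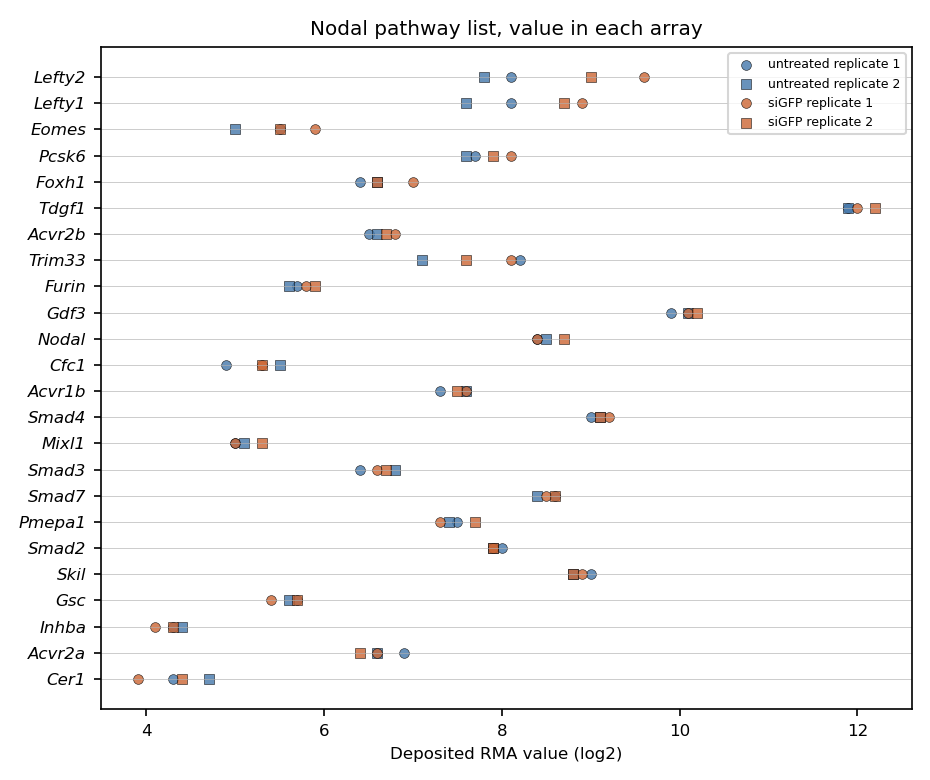
Each line is 1 of the 24 measured genes of the Nodal pathway and each point is 1 array on the deposited log2 scale, with colours and shapes by group and replicate. Lefty2 and Lefty1, the upper lines, are 1.35 and 0.95 apart, and the largest difference among the other lines is 0.45, for Eomes.

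Stra8, a gene of the entry into meiosis that retinoic acid induces, was lower with siGFP. Stra8 (probe set 10537231) read 5.5 and 5.1 in the untreated arrays and 4.4 in both siGFP arrays, a difference of −0.90 (SE 0.17, unadjusted p 0.00973 and adjusted p 0.941 by limma). The groups were separate, yet all 4 values lay below the array medians of rows with 1 symbol, which were 5.6 or 5.7. Of 22 genes listed for the retinoic acid response, 20 had a row and 4 of them had a mean of at least 6. The difference was below 0 for 14, above 0 for 4 and 0 for 2, with a median of −0.075. It was −0.025 after that shift of all arrays to 1 median. Both siGFP arrays lay below both untreated arrays in 6 (30%, against 8.72% of all genes) and above both in 1 (5%, against 9.45%).

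The receptors of retinoic acid made up much of that count. Rxrb read 7.5 and 7.6 without siRNA and 7.2 and 7.3 with siGFP (−0.30, SE 0.09). Rara read 7.3 and 7.5 against 7.2 in both siGFP arrays, and Rarg read 8.1 in both untreated arrays against 7.8 and 8.0, each a difference of −0.20 (SE 0.10). Rarb had −0.30, Rxrg −0.25 and Rxra 0.05, with overlap, and Rarb and Rxrg were dim (at most 4.4). The enzyme Cyp26a1, which breaks down retinoic acid and is one of its direct targets, had −0.20 at a level of 3.6 to 3.9, and Meis1 had −0.20. Crabp2, a binding protein, had −0.35 with overlap. Nrip1, a corepressor, had 0.30 and was the member with separate, higher arrays. Stra6, the importer of the precursor, had 0.05, and Aldh1a2, which makes retinoic acid, had 0.00.

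Other genes of the germline showed a mixed picture. Of 37 measured germline and meiosis genes, 15 were above 0 and 16 below 0, and 17 had a mean of at least 6. Members with separate, lower arrays numbered 6 (16.2%, against 8.72% of all genes). They were Tex11 (5.8 and 5.1 against 4.6 and 4.7, a difference of −0.80), Dazl (−0.25) and the piRNA pathway genes Piwil2, Mov10l1, Tdrd6 and Tdrd9 (−0.35 each). Only Piwil2 among them had a mean of at least 6. Members with separate, higher arrays numbered 2 (5.41%, against 9.45%). Dppa3, also called Stella, had 0.50 and Dmc1, a recombinase of meiosis, 0.45.

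Of 44 listed interferon genes, 39 had a row, with 18 above 0, 13 below 0, 8 at 0 and a median of 0. Separate arrays were found in 6 higher (15.4%, against 9.45%) and 2 lower members (5.13%, against 8.72%). The ligand Ifnb1 read 2.7 and 3.2 without siRNA and 3.0 in both siGFP arrays. Of the sensors of double-stranded RNA, Ifih1, which encodes MDA5, had −0.10, Tlr3 −0.45 and Dhx58 0.10, all with overlap and at levels of 2.8 to 4.7. Eif2ak2, which encodes the kinase PKR, read 6.4 and 5.1 without siRNA and 6.3 and 6.0 with siGFP, so its untreated arrays were 1.3 apart and its difference of 0.40 turned to −0.25 without untreated replicate 2. Of the classical targets, Ifit1, Mx1 and Usp18 had 0.00 each and Rsad2 0.15. The higher members with separate arrays were Mx2 (3.2 and 3.0 against 3.5 in both siGFP arrays, 0.40), B2m (0.40), Ifit3 (0.30 at 2.7 to 3.2), Stat2 (0.20), Ifi35 (0.20) and Tap1 (0.15). The lower ones were Oas2, a sensor that makes 2′-5′ oligoadenylate (5.0 in both untreated arrays against 4.5 and 4.6), and Rnf213 (−0.25).

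Of 27 measured genes of the machinery that uses small RNAs, 10 were above 0 and 14 below 0, with a median of −0.05. The largest differences were those of Tut4 (7.1 and 6.5 against 7.4 and 7.1, 0.45) and Tut7 (6.8 and 6.5 against 7.1 and 6.8, 0.30), which encode uridylyltransferases that act on let-7 precursors. The arrays of both met at 1 value. Separate arrays were found in 2 higher members, Snd1 (0.20) and Prkra (0.15), and 2 lower members, the Argonaute gene Ago3 (−0.20) and Tsnax (−0.20), which is 7.41% each way. Over all genes these shares were 9.45% and 8.72%. Lin28a, which blocks let-7 maturation, read 9.1 and 9.4 in the untreated arrays and the same values in the siGFP arrays.

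Lysosome genes formed the other large group of higher genes. Of 41 listed genes 37 had a row, with 32 above 0, 5 below 0 and a median of 0.10. Both siGFP arrays lay above both untreated arrays in 15 (40.5%, against 9.45%) and below both in 3 (8.11%, against 8.72%). Cd63, a tetraspanin of late endosomes and lysosomes, read 6.6 and 6.3 without siRNA and 7.3 and 7.2 with siGFP, a difference of 0.80 (SE 0.14). Hexa, which encodes a subunit of β-hexosaminidase, read 7.8 and 8.1 against 8.7 and 8.5 (0.65, SE 0.16). Scarb2, the lysosomal membrane protein LIMP-2, read 7.4 and 7.3 against 8.0 and 7.8 (0.55, SE 0.11). In these genes every siGFP array exceeded every untreated array by at least 0.4. The smaller differences with separate arrays covered the proteases Ctsa, Ctsc and Ctsd (0.30 each) and Ctsh (0.20), the hydrolases Man2b1 (0.30) and Ppt1 (0.20), and the membrane proteins Laptm4b (0.35), Mcoln1 (0.25) and Lamp1 (0.15). Grn (0.35), the proton pump subunit Atp6v0d1 (0.25) and the cholesterol carrier Npc2 (0.20) completed the group. The members with separate, lower arrays were Ctsf (−0.40), Gusb (−0.30) and Naglu (−0.15).

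Of 31 measured genes of endocytosis and endosomal transport, 15 were above 0 and 13 below 0, with separate arrays in 3 (9.68%) each way, near the shares of all genes. Eea1, a tether of early endosomes, had the largest difference, with 5.2 and 4.4 without siRNA and 6.0 and 5.2 with siGFP (0.80, SE 0.44), so its arrays met at 5.2. Dnm2, the dynamin that cuts vesicles from the membrane, read 7.6 in both untreated arrays and 8.0 in both siGFP arrays (0.40, SE 0.07). Ehd4 and Lrp1 had 0.25 and 0.20, and Rab5c, Lrp2 and Snx1 had −0.25, −0.25 and −0.35. Of 21 autophagy genes 1 had separate, higher arrays (4.76%, against 9.45% of all genes). Separate, lower arrays were found in 2 (9.52%, against 8.72%), among them Gabarapl2 (10.2 and 10 against 9.3 and 9.9).

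Lipid genes leaned the same way as the lysosome in their counts, but the centred means of both lipid lists overlapped between groups. For fatty acid synthesis and lipid storage they were −0.116 and 0.036 in the untreated arrays and 0.004 and 0.076 with siGFP. For cholesterol synthesis and uptake they were −0.0545 and −0.0136 without siRNA and −0.0318 and 0.10 with siGFP. Those of the lysosome list were separate, at −0.124 and −0.029 against 0.095 and 0.057. Of all genes, 9.45% had separate, higher arrays and 8.72% separate, lower arrays. Of 25 measured genes of fatty acid synthesis and lipid storage, 7 had separate, higher arrays (28%) and 0 separate, lower arrays. They were the desaturases Scd1 (8.9 and 9.2 against 9.6 and 9.4, 0.45) and Scd2 (0.20), Lpin1 (0.40), the lipid droplet proteins Plin2 and Plin3 (0.30 each), Dgat1 (0.15) and Cpt1a (0.10). Of 22 genes of cholesterol synthesis and uptake, 5 had separate, higher arrays (22.7%) and 0 separate, lower arrays. Among these were Insig1 and Srebf1, regulators of sterol synthesis, with 0.30 each. Apoe, a lipid carrier that is a member of neither lipid list, read 9.8 and 10.1 without siRNA and 10.4 and 10.5 with siGFP (0.50, SE 0.14).

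The targets of ATF4, the transcription factor of the integrated stress response, were higher in 1 siGFP array rather than in both. Of 36 listed genes 33 had a row, with 25 above 0, 7 below 0 and a median of 0.15. The centred mean of the list was −0.22 and 0.04 in untreated replicate 1 and 2 and 0.28 and −0.10 in siGFP replicate 1 and 2, so the groups overlapped. Leaving out replicate 1 of either group brought the median to 0.00. Leaving out replicate 2 brought it to 0.35 for siGFP and to 0.30 for untreated cells. Members with separate, higher arrays numbered 5 (15.2%, against 9.45%). Ddit4, an inhibitor of mTOR signalling, read 7.1 and 7.0 without siRNA and 8.2 and 7.7 with siGFP, a difference of 0.90 (SE 0.21). The others were Vldlr (0.50), the serine synthesis enzyme Phgdh (8.3 in both untreated and 8.6 in both siGFP arrays), Cth (0.30) and Ppp1r15a (0.15). Chac1, which degrades glutathione, read 6.8 and 6.9 without siRNA and 8.2 and 6.7 with siGFP, and Atf3 read 5.5 in 3 arrays and 6.3 in siGFP replicate 1.

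The composite element bound by ATF4 and C/EBP proteins (TGATGNAA on either strand) was present in 10 of the 27 promoters given for this list (37%), beside 4.51% of 27025 genes. Of the 4 members with separate, higher arrays and a promoter given, 1 held a match, and the window of Ddit4 held 0. The promoter of Chac1, the list member with the widest spread between the siGFP arrays named here, is shown with its match in capitals, as read on the plus strand.

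Chac1, chr2:119350992-119351291, plus strand: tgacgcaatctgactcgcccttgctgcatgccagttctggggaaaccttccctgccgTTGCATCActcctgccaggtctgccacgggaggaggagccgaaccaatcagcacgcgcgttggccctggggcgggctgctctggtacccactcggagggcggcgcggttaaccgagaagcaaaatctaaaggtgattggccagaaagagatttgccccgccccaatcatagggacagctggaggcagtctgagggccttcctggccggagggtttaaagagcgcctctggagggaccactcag

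Other stress lists differed in how far their arrays separated. Over all genes, 9.45% had separate, higher arrays and 8.72% separate, lower arrays. Of 30 measured ER chaperones and genes of the unfolded protein response, 24 were above 0 and 2 below 0, with separate, higher arrays in 6 (20%), among them Hyou1 (0.25) and Pdia6 (0.20). The major chaperones did not separate. Hspa5, which encodes BiP, read 10.3 and 9.4 without siRNA and 10.2 and 10.5 with siGFP, and Hsp90b1 read 10.9 and 9.6 against 10.8 and 10.9, so untreated replicate 2 was the low array in both. Of 23 hypoxia genes, 8 had separate, higher arrays (34.8%) and 0 separate, lower arrays. Beside Ddit4 they were Egln3 and Ndrg1 (0.40 each), Adm and Pfkfb3 (0.35 each), P4ha2 (0.30), Egln1 and Ero1a (0.15 each). Of 25 immediate early genes, 8 had separate, higher arrays (32%), with Jun at 5.5 and 5.6 against 5.9 and 6.0 (0.40, SE 0.09), Dusp1 (0.40) and Gadd45b (0.35). Egr1 went the other way, at 7.1 and 7.5 against 7.0 and 6.6. Of 22 targets of NRF2 4 had separate, higher arrays (18.2%), and of 15 heat shock genes 0 had separate arrays. The centred mean of the NRF2 list was −0.073 and −0.0045 without siRNA and −0.036 and 0.114 with siGFP, so the groups overlapped.

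**Figure D3:**
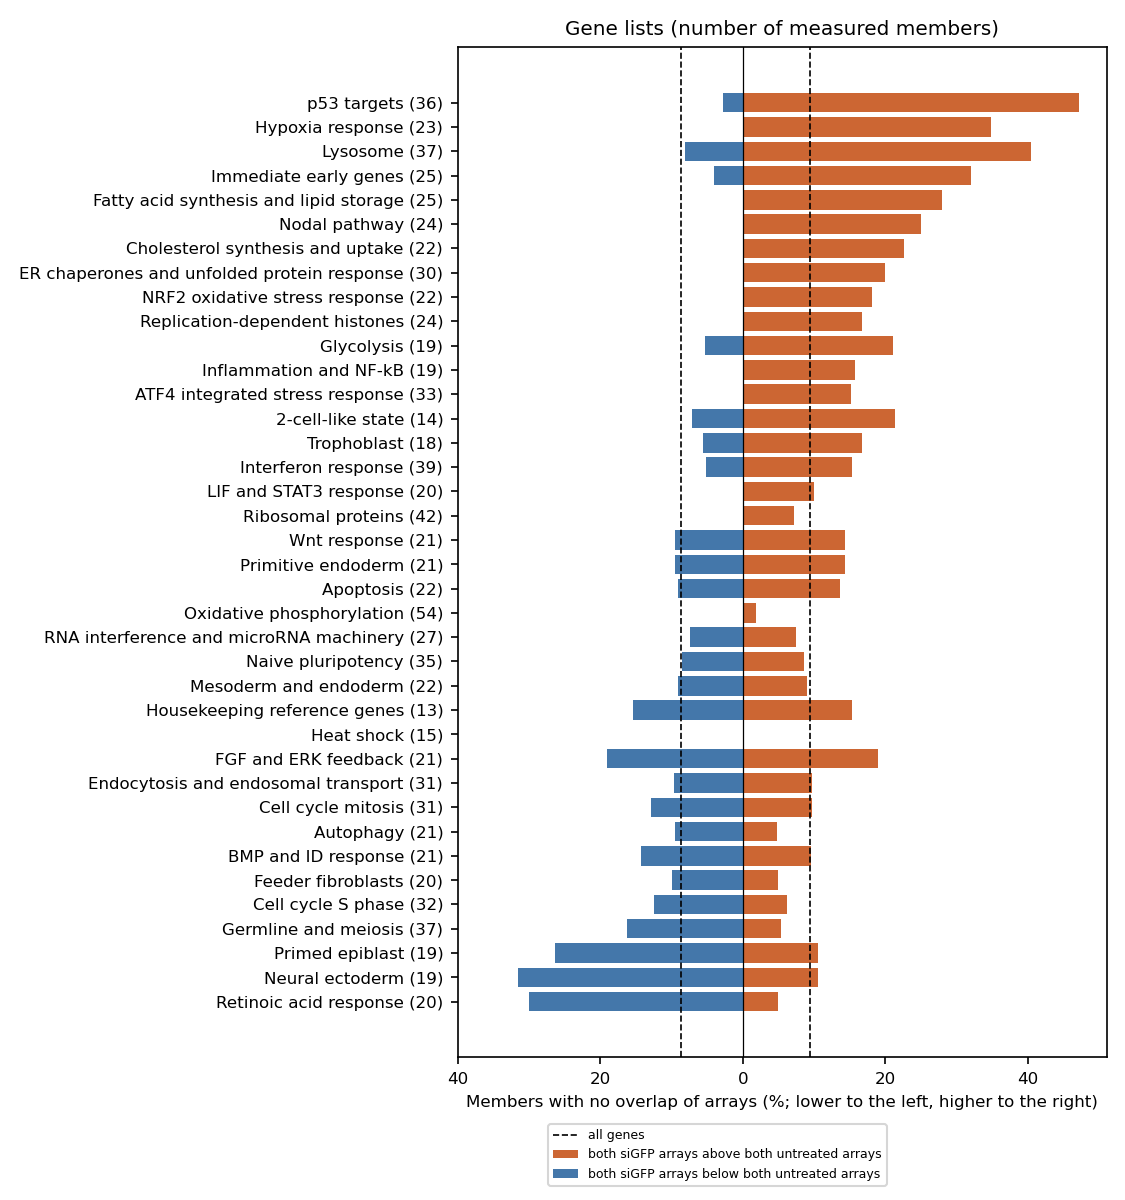
Bars give, for each gene list with its number of measured members, the percent of members with both siGFP arrays above (orange, right) or below (blue, left) both untreated arrays; dashed lines mark all genes, 9.45% and 8.72%. The p53 list (47.2%) and the lysosome list (40.5%) reach farthest right, and the neural ectoderm (31.6%) and retinoic acid (30%) lists farthest left.

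The core of the pluripotency network lay within its own spread. Pou5f1, which encodes OCT4, read 11.3 and 11.4 without siRNA and 11.2 and 11.4 with siGFP. Sox2 read 11.5 and 11.3 against 11.2 and 11.4, and Nanog 11.1 and 11.4 against 10.9 and 11.3. Their differences were −0.05 (SE 0.11), −0.10 (SE 0.13) and −0.15 (SE 0.21), all with overlap. Of 35 measured genes of naive pluripotency, 3 had separate, higher and 3 separate, lower arrays (8.57% each, against 9.45% and 8.72% of all genes). The higher ones were Dnmt3l, a partner of the DNA methyltransferases (9.6 and 9.9 against 10.6 and 10), Dppa3 and Tdgf1. The lower ones were the DNA demethylase Tet2 (−0.40), Tbx3 (−0.30) and Jam2 (−0.15).

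Genes of the primed epiblast and of neural ectoderm had members on both sides of 0, more of them below. Of 19 primed genes, 12 were below 0 and 6 above 0, with separate, lower arrays in 5 (26.3%, against 8.72%) and separate, higher arrays in 2 (10.5%). Zic5, a zinc finger factor, read 8.3 and 8.1 without siRNA and 7.6 and 7.3 with siGFP on its brightest row (−0.75, SE 0.16). Dnmt3a, a de novo DNA methyltransferase, read 8.6 and 8.3 against 7.8 and 8.1 (−0.50, SE 0.18). The higher members were Lef1 (0.40) and Dnmt3b (0.25). Of 19 neural genes, 11 were below 0 and 6 above 0. Separate, lower arrays were found in 6 (31.6%, against 8.72%), among them Pax6 (5.0 and 4.9 against 4.4 and 4.6) and Sox4 (6.7 and 7.0 against 6.5 and 6.6). Separate, higher arrays were found in 2 (10.5%, against 9.45%), the microtubule protein gene Map2 (5.1 and 4.9 against 5.3 and 5.5) and the proneural factor gene Neurog2 (4.3 and 4.1 against 4.5 and 4.6). Of these 19 genes, 5 had a mean of at least 6.

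Other signalling genes gave single differences. Id4, an inhibitor of helix-loop-helix factors, read 6.7 and 6.3 without siRNA and 7.4 and 7.1 with siGFP (0.75, SE 0.21). The BMP list as a whole had 14 of 21 genes below 0 (66.7%, against 43.3% of all genes). Separate arrays were found in 2 of its members higher (9.52%, against 9.45%) and 3 lower (14.3%, against 8.72%). Of 21 genes of FGF and ERK feedback, 4 had separate, higher and 4 separate, lower arrays (19% each, against 9.45% and 8.72%). The phosphatase gene Dusp4 had 0.60 and the receptor Fgfr2 0.50, against −0.55 for Etv4. Of 21 Wnt genes, 3 had separate, higher arrays (14.3%, against 9.45%) and 2 separate, lower arrays (9.52%, against 8.72%), with a median of 0. Among them Lef1, Tcf7l1 and Apcdd1 had 0.40 each, and Axin2, a common target, read 6.2 and 6.1 without siRNA and 5.8 in both siGFP arrays (−0.35, SE 0.08).

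Differences of at least 2-fold were few. Of the 21797 rows with 1 symbol, 12 were at least 2-fold higher (0.0551%) and 4 at least 2-fold lower (0.0184%). After a shift of all arrays to 1 median these counts were 19 and 2. In all 12 higher rows siGFP replicate 1 was above replicate 2, and in all 4 lower rows it was below. The siGFP arrays were at least 0.5 apart in 10 of the higher and 3 of the lower rows. Leaving out untreated replicate 1 gave counts of 95 higher and 11 lower rows, and leaving out untreated replicate 2 gave 19 and 14. With siGFP replicate 1 left out they were 11 and 8, and with siGFP replicate 2 left out 71 and 17.

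The higher rows were led by Cenpe, Lefty2, Cenpf and Kif20b. Cenpe, a kinetochore motor, read 5.5 and 4.9 without siRNA and 7.5 and 5.9 with siGFP, the largest difference of any row with 1 symbol (1.5, SE 0.66). Cenpf, a kinetochore protein, read 6.3 and 6.2 against 8.1 and 6.8 (1.20, SE 0.51). Kif20b, a kinesin, read 6.1 and 6.0 against 7.9 and 6.6 (1.20, SE 0.51). For these genes the siGFP arrays were 1.3 to 1.6 apart, more than the difference between the nearest arrays of the groups. The others were the condensin subunit Smc4 (6.3 and 6.0 against 7.8 and 6.7), the repair gene Rad50 (7.3 and 6.8 against 8.4 and 7.7), Adh1 (1.15), Rock1 (1.10), Zfp738 (1.05) and Myo9a (1.00). Zfp738 and Myo9a have several rows, and only 1 row of each was at least 2-fold apart. Their brightest rows had 0.15 and 0.30, both with overlap. Serpinb6c, a serine protease inhibitor, was the exception beside Plk2, at 7.1 and 6.7 without siRNA and 8.0 and 7.9 with siGFP (1.05, SE 0.17). Mki67, a marker of cycling cells, fell short of 2-fold, at 7.4 and 7.0 against 8.4 and 7.8 (0.90, SE 0.29).

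The lower rows were Ccnd2, Zfp281, Hal and Slc22a30. Ccnd2, which encodes cyclin D2, read 9.7 and 9.4 without siRNA and 7.8 and 9.2 with siGFP (−1.05, SE 0.56). Zfp281, a transcription factor of ES cells, read 9.5 and 9.1 against 7.5 and 9.0 (−1.05, SE 0.60). In siGFP replicate 2 both were within 0.2 of the nearer untreated array. Hal, which breaks down histidine, read 7.2 and 7.3 against 5.7 and 6.8, and Slc22a30 had −1 at a level between 2.0 and 3.5.

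The cell cycle lists as a whole did not follow Cenpe and Ccnd2. Of 31 genes of mitosis, 13 were above 0 and 14 below 0. The centred mean of this list was 0.10 and −0.23 in untreated replicate 1 and 2 and 0.09 and 0.04 with siGFP. Untreated replicate 2 was therefore the low array. Separate arrays were found in 3 higher members of the mitosis list (9.68%, against 9.45% of all genes), Cenpe, Cenpf and Mki67. They were found in 4 lower ones (12.9%, against 8.72%), Cdk1 and Cdc25c (−0.20 each), Cdc25b (−0.25) and Birc5 (−0.30). Of 32 genes of S phase, 2 had separate, higher arrays (6.25%) and 4 separate, lower arrays (12.5%). The higher ones were Cdk2 (0.20) and Mcm6 (0.10), and the lower ones beside Ccnd2 were Slbp (−0.35), Tk1 (−0.30) and E2f2 (−0.25). The other row of Tk1 had −0.15 with overlap.

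**Figure D4:**
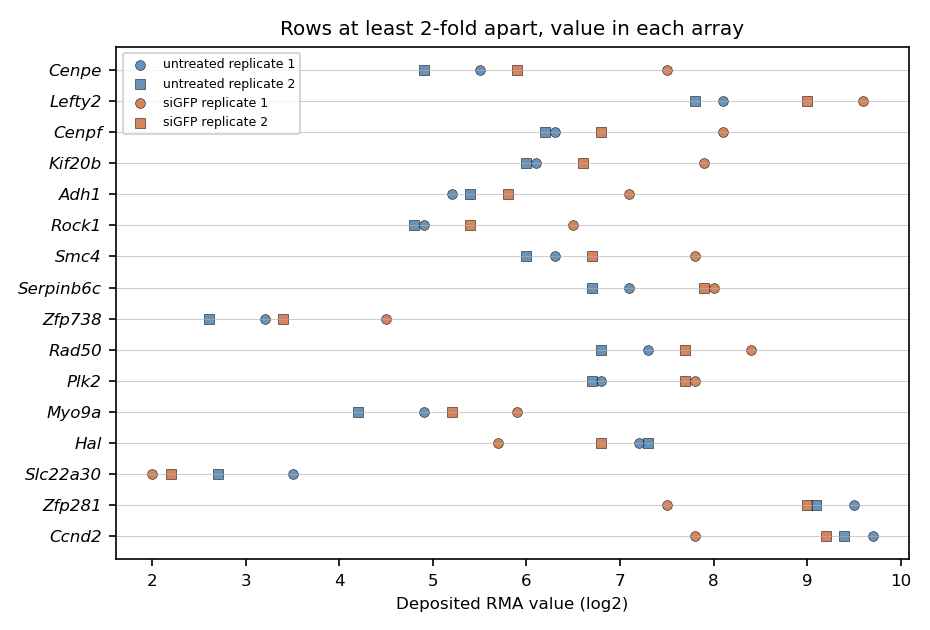
Each line is 1 of the 16 rows with 1 symbol whose group means are at least 2-fold apart, and each point is 1 array on the deposited log2 scale. The orange circle, siGFP replicate 1, is the outermost siGFP point in every line; for Ccnd2 it lies at 7.8 while the other siGFP array lies at 9.2.

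A second set of genes was chosen as the 12 rows in each direction with the smallest p, separate arrays and a higher group that averaged 6 or more. Arrays close together within a group and apart between groups are what this choice asks for, so the values describe the set and test nothing. In 7 of the 24 rows only the higher group reached 6, Penk, Slc40a1 and Pax8 among them. Among the higher ones after Plk2, Penk, the precursor of enkephalins, read 5.2 and 5.4 without siRNA and 6.1 in both siGFP arrays (0.80, SE 0.10). Sfmbt2, a Polycomb protein, read 6.5 and 6.4 against 7.2 and 7.1 (0.70, SE 0.09). Pomgnt1, a glycosyltransferase, read 6.5 in both untreated arrays against 7.1 and 7.2 (0.65, SE 0.08). The rest had differences of 0.50 to 0.75. Mfsd1, a transporter of the lysosomal membrane, read 9.2 in both untreated and 9.7 in both siGFP arrays. Erbb3, a receptor tyrosine kinase, read 7.2 in both untreated arrays and 7.8 and 7.7 with siGFP. Slc40a1, which encodes the iron exporter ferroportin, read 5.7 and 5.6 against 6.2 and 6.3. Adgrl2, an adhesion receptor, read 6.9 and 6.7 against 7.6 and 7.5 (0.75, SE 0.11), and its other rows lay between 0.00 and 0.80. Lgals3, which encodes galectin-3 and binds damaged endosomes and lysosomes, read 6.9 and 6.8 against 7.4 and 7.5 (0.60, SE 0.09). The cofactor Lbh and the actin regulator Raph1 had 0.55 each.

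The lower genes of this set had differences of −0.45 to −0.70. Tra2a, a splicing factor, read 6.9 and 7.0 without siRNA and 6.4 in both siGFP arrays (−0.55, SE 0.08), and its other rows had −0.35 and −0.15. Trmt1l, a relative of tRNA methyltransferases, read 8.1 and 8.2 against 7.6 and 7.5 (−0.60, SE 0.09). Rc3h2, also called Roquin-2, which promotes mRNA decay, read 8.3 in both untreated arrays against 7.9 and 7.8 (−0.45, SE 0.08). Rbm33, an RNA-binding protein, had −0.45 on this row and −0.10 on each of its other rows. Syt11, a synaptotagmin, read 6.4 and 6.6 against 5.7 and 5.9 (−0.70, SE 0.13), and Gnat2, a transducin subunit, 6.6 and 6.7 against 6.0 and 6.1 (−0.60, SE 0.09). Macroh2a2, a histone variant, and Gdpd1 had −0.50 each. Pax8, Ap5m1, Lancl2 and a second row of Zic5 had −0.45 each. All rows of this set had an adjusted p of 0.941 by limma.

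**Figure D5:**
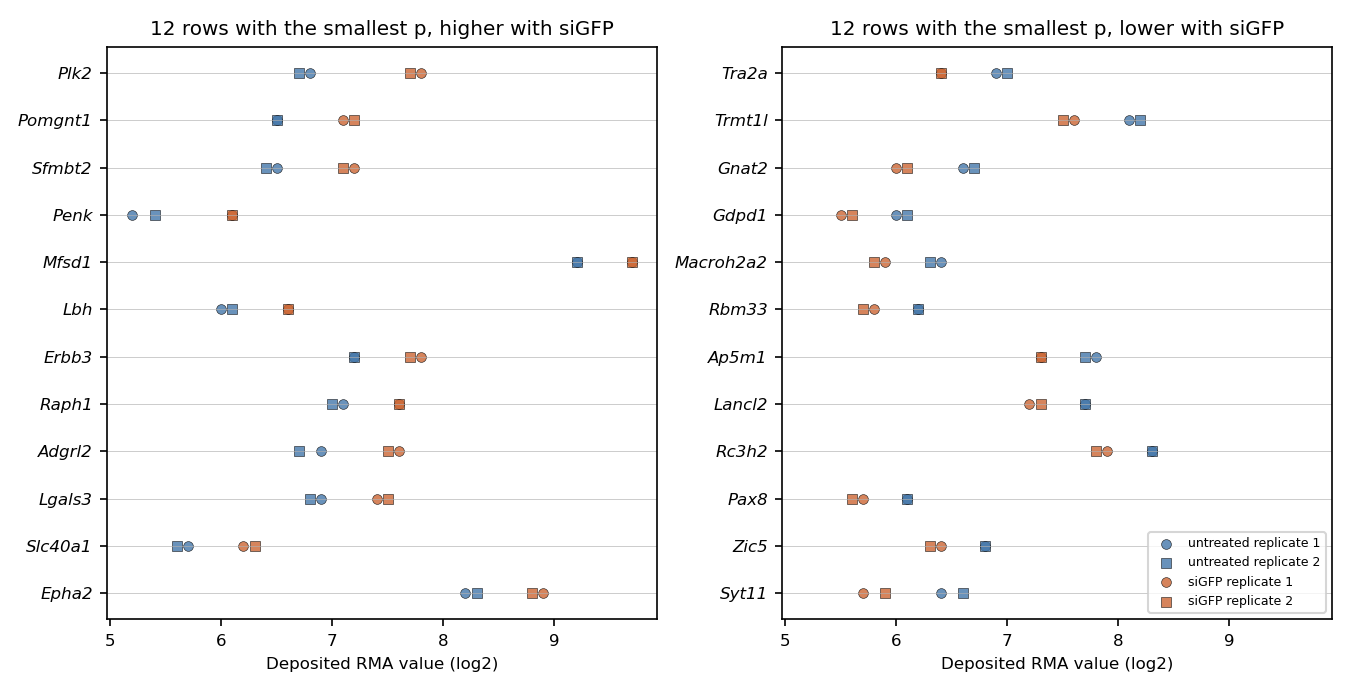
Left, the 12 higher rows and right, the 12 lower rows with the smallest unadjusted p by limma, with each array as a point on the deposited log2 scale. The rows were chosen for close arrays within a group and separate groups, so that layout is given by the choice; the group means lie 0.45 to 1.00 apart.

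Families of abundant genes were counted in the same way. Of all genes, 44.3% were above 0, 9.45% had separate, higher arrays and 8.72% separate, lower arrays. Of 42 ribosomal protein genes, 31 were above 0 and 3 below 0, with a median of 0.05 and separate, higher arrays in 3 (7.14%). The centred mean of this list was −0.084 and 0.016 without siRNA and −0.060 and 0.128 with siGFP, so the groups overlapped. Of 54 genes of oxidative phosphorylation, 1 had separate, higher arrays (1.85%), Uqcrc2 at 0.10. Of 24 replication-dependent histone genes, 21 were above 0 (87.5%), with separate, higher arrays in 4 (16.7%) and a median of 0.15. The centred mean of the histone list was −0.184 and 0.032 without siRNA and 0.003 and 0.149 with siGFP, so the groups overlapped. H2ac1, a histone H2A gene, had the largest difference of the list, 0.50, with 8.8 and 9.4 without siRNA and 9.9 and 9.3 with siGFP, which overlap. Of 19 glycolysis genes 4 had separate, higher arrays (21.1%), Aldoc (0.35), Pfkl and Pfkm (0.30 each) and the glucose transporter Slc2a3 (0.15), and 1 separate, lower arrays (5.26%), Eno3 (−0.45). The centred mean of the glycolysis list was −0.105 and 0.021 without siRNA and 0.016 and 0.068 with siGFP, which overlap. Apoptosis regulators had 9 of 22 genes on each side of 0, and Apaf1, the core of the apoptosome, read 7.2 and 7.4 without siRNA and 7.7 and 7.6 with siGFP (0.35, SE 0.11).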

How the data were processed

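The authors' deposited values are log2 expression of Affymetrix arrays, made with Affymetrix Expression Console and RMA, per the submitters' processing notes. Not given in the sources used here: their versions, the library files and a genome build. Rows were named through the array platform's annotation: 21797 have 1 gene symbol, 1613 several and 12146 none. Entrez numbers matched 21698 of the 21797 to RefSeq (GRCm38.p6).

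From these values, group means were compared with limma 3.58.1 in R 4.3.3 (lmFit and eBayes, two-sided, 2 residual and 1.36 prior degrees of freedom). The Benjamini-Hochberg adjustment covered 23410 rows, with no filter on dim rows. No separate background correction was made. The script was tested on simulated data. Precision is limited by the number of arrays.

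The comparison, its gene lists and its members were chosen with earlier results of these data known. The rule for naming genes took Plk2, Lefty2, Stra8, Pou5f1, Sox2, Nanog and Lin28a; the 12 rows per direction with the smallest p, as defined with them; the 3 members of each list with the largest difference; and members of the p53, Nodal, retinoic acid and interferon lists. Not every gene it took is described. The second set passed over predicted genes, chemoreceptors, small RNA genes and pseudogenes. Other genes, those at least 2-fold apart and list members with separate arrays among them, were named after their values were seen. The p53 half-site was also chosen then.

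Replicate numbers were checked as pairs: the differences between replicates 1 and 2 of the groups correlated at 0.154 across rows, with 2 pairs, which was not taken as pairing. Alternatives covered the samples in the fit, a replicate block, the prior, the normalization, the rows tested, a filter at a mean of 6, the row of a gene and leaving out each array.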

Additional observations from a re-analysis of the deposited data

How the results depend on the processing

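No row passed an adjusted p of 0.05 by limma or least squares in any alternative, and the lowest adjusted p among 309 genes named by rule, with separate arrays or in the text ranged from 0.3696 without untreated replicate 1 to 0.989 after cyclic loess. With the replicate number as a block, a check of pairing only, 0 rows passed, the lowest adjusted p was 0.4837, and 679 rows were higher and 571 lower at an unadjusted p under 0.05. These unadjusted counts, 588 and 438 as reported, were 278 and 202 by least squares, which leaves out 573 rows with no spread. They were 1039 and 276 after all arrays were shifted to 1 median, and 259 and 170 with a mean under 6 left out. Leaving out 1 array gave 844 to 1173 higher and 741 to 1130 lower rows. Counts of rows at least 2-fold higher and lower were 19 and 2 after the shift and 117 and 221 over all rows of the table, 7 were higher with dim rows left out, and without 1 array they were 11 to 95 and 8 to 17. Rows with separate arrays, 2027 and 1901 as reported, were 3305 and 1175 after the shift, 3458 and 3203 after cyclic loess, which breaks ties, 3225 and 3552 over all rows and 906 and 763 without dim rows. With 1 array of a group left they were 4664 to 6223 and 4171 to 6222, since a lone array separates more easily. List medians without 1 array lay between 0.15 and 0.25 for p53 targets, 0.05 and 0.15 for Nodal, 0.10 and 0.20 for the lysosome and 0.00 and 0.35 for ATF4 targets; the Nodal median was 0.15 after the shift. Of the 309 genes, 24 turned in sign, and the cause was not tested. Pdia4 did so with the mean of its rows (−0.025). Many of the 309 were taken for their separate arrays. A gene with separate arrays cannot turn when 1 array is left out, so the count does not measure stability. Without 1 array the ranges were −1.05 to 0.15 for Ccne2, −0.05 to 1.25 for Hsp90b1, −0.10 to 0.50 for Hspa4, −0.15 to 0.05 for Pou5f1, −0.35 to 0.05 for Nanog, −0.15 to 1.35 for Chac1, −0.10 to 0.70 for Herpud1, −0.45 to 0.15 for Ahsa1, −0.70 to 0.20 for Gbx2, −0.50 to 0.10 for Atp5g1, −0.25 to 1.05 for Eif2ak2, −0.20 to 0.30 for Ifnb1, −0.25 to 0.05 for Ifih1 and Gsc, −0.30 to 0.10 for Fas, −0.15 to 0.45 for Zfp738, −0.10 to 0.30 for Lama1, −0.05 to 0.25 for Nodal, −0.15 to 0.25 for Smad3 and Pmepa1, −0.05 to 0.15 for Smad7 and −0.15 to 0.05 for Skil and Col1a1. The range for Zfp738 is that of its brightest row, which is not the row at least 2-fold apart. A lone array is assumed to vary like the other group.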

Other observations

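Rows without a gene in the annotation gave most of the large differences in this comparison. Of 12146 such rows, 105 were at least 2-fold higher and 217 at least 2-fold lower with siGFP, against 12 and 4 of the 21797 rows with 1 gene and 0 and 0 of the 1613 rows with several genes. They were also the rows that differed most within a group: 1002 were at least 2-fold apart between the untreated arrays and 1156 between the siGFP arrays. Their median level was 4.55, beside 5.675 for rows with 1 gene, and 3.475 for those at least 2-fold apart. Both siGFP arrays lay below both untreated arrays in 12.9% of the rows without a gene, against 8.72% of rows with 1 gene. They lay above both in 8.78%, against 9.3%. What these rows measure was not tested.

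Genes of the 2-cell-like state were mostly dim, with a mean of at least 6 in 3 of 14 measured members. Of the 14, 3 had separate, higher arrays (21.4%, against 9.45% of all genes) and 1 separate, lower arrays (7.14%, against 8.72%). The higher ones were Pramel7 (3.2 and 3.4 without siRNA, 3.7 and 3.9 with siGFP), Tmem92 (2.6 in both against 3.0 in both) and Usp17la (2.0 and 2.1 against 2.3 and 2.5). The lower one was Tcstv3 (−0.25). Among reference genes often used to scale expression, Polr2a read 8.6 and 8.8 against 9.3 and 9.1, a difference of 0.50, and Tbp read 8.6 and 8.7 against 8.3 in both siGFP arrays, a difference of −0.35. Thy1, a surface protein listed with fibroblast markers, read 7.0 and 7.1 against 6.7 and 6.6, while the collagens Col1a1, Col1a2 and Col3a1 had −0.05, 0.00 and −0.10.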
